A study of Mus musculus with 8 samples.

Results

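The Hox cluster genes are homeobox genes that lie side by side in 4 clusters of the mouse genome, HoxA on chromosome 6, HoxB on chromosome 11, HoxC on chromosome 15 and HoxD on chromosome 2. They were taken here by symbol: a Hox letter a to d followed by a number. The gene table holds 39 such genes, and 33 of them had a probe set annotated with that symbol alone, out of 18140 genes with such a probe set. Among the others, Hoxb8 and Hoxd4 shared their probe sets with a neighbour's symbol, and the rest were not analysed here. Where a gene had several probe sets, the brightest stood for it. The 33 genes had 48 probe sets between them.

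Expression was measured on 8 one-colour Affymetrix arrays of V6.5 cells, a line of mouse embryonic stem (ES) cells, in 4 groups of 2 arrays. Cells of every group received a hairpin by viral infection with polybrene at 8 µg/ml, were selected for 4 days with puromycin at 4 µg/ml, and gave RNA on day 5. In the CapH2 knockdown, which targets the condensin II subunit gene Ncaph2, each array was a different hairpin (3 or 4). The Smc2 knockdown, which targets a subunit of both condensins, likewise used hairpin 1 or 2. Smc1, whose target is the cohesin gene Smc1a, and GFP, the control hairpin, had 1 hairpin each with 2 biological replicates. An effect of the Smc1 or the GFP hairpin on genes other than its target therefore cannot be told apart from the knockdown. Ncaph2 was at 12.5% of its GFP mean in the CapH2 knockdown, Smc2 at 32.03% in the Smc2 knockdown and Smc1a at 12.6% in the Smc1 knockdown.

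Hox genes encode transcription factors that give cells along the head to tail axis their position. Genes at one end of a cluster (low numbers) act early and in the hindbrain and neck, and those at the other end (high numbers) late and in the trunk, tail and limbs. In ES cells the clusters are packed in chromatin marked by Polycomb proteins and are mostly silent; they open in order when cells are exposed to retinoic acid or posterior signals. Cohesin and the boundary factor CTCF hold chromatin loops in and around the clusters, and condensins compact chromosomes.

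Promoter sequence was not used in the choice by symbol, and it was at hand for a part of the genes. RefSeq promoter windows of the build GRCm38.p6 (250 bases before to 50 after the start) were at hand for 24 starts of 22 Hox genes. Of these genes, Hoxa6, Hoxb8 and Hoxd4 were not among the 33 followed here. Hoxb2 had no window, and Hoxc4 was the only HoxC gene with one. The Hox windows held a median of 14.5 CpG dinucleotides in 300 bases (range 4 to 45), against 7 over all 32851 windows. Their median GC content was 57.7%, against 52.7%. The 250 bases before the start are shown for 4 genes described below, with every CG in capitals, since they show how far the members differ. Hoxb1 and Hoxb4 are neighbours of Hoxb2 on the same strand of the HoxB cluster, and Hoxd9 and Hoxd13 lie in the HoxD cluster.
Hoxb1, chr11:96365508-96365757, plus strand: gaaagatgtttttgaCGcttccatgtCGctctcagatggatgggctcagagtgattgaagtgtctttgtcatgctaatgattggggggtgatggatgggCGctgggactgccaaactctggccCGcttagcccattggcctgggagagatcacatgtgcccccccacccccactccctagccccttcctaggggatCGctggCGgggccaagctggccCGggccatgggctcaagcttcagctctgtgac
Hoxb4, chr11:96318017-96318266, plus strand: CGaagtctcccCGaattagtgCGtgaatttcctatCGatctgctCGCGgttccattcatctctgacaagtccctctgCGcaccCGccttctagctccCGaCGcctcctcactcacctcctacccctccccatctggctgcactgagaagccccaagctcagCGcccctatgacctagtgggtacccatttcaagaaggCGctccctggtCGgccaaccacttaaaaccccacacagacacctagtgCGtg
Hoxd9, chr2:74697513-74697762, plus strand: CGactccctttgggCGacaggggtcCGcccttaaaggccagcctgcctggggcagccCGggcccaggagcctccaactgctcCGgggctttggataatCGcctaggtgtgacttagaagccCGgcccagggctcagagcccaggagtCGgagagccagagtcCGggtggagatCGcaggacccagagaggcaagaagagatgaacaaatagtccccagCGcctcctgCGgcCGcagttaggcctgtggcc
Hoxd13, chr2:74667975-74668224, plus strand: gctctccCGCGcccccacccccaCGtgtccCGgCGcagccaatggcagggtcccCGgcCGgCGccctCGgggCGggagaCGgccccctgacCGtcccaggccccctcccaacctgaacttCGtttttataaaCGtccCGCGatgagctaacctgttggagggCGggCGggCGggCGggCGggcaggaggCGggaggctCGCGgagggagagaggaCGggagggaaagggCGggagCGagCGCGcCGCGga
The printed stretch of Hoxb1 holds 7 CpG, that of Hoxd9 holds 13, that of Hoxb4 holds 14 and that of Hoxd13 holds 31. Over both strands of the whole windows, TATAAA was found in 16.7% of Hox windows and in 13.6% of all windows. The letters CCAAT were in 62.5% of Hox windows and in 37.4% of all, and TGATNNAT, a site form bound by Pbx and Hox proteins together, in 16.7% and 8.85%. These motifs can share letters at their ends, and overlaps were kept. Hoxb1 holds CCAAT and TGATNNAT, Hoxd13 holds TATAAA and CCAAT, and neither Hoxb4 nor Hoxd9 holds any of the 3. A match is only a match of letters; no binding or methylation was measured.

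**Figure D1:**
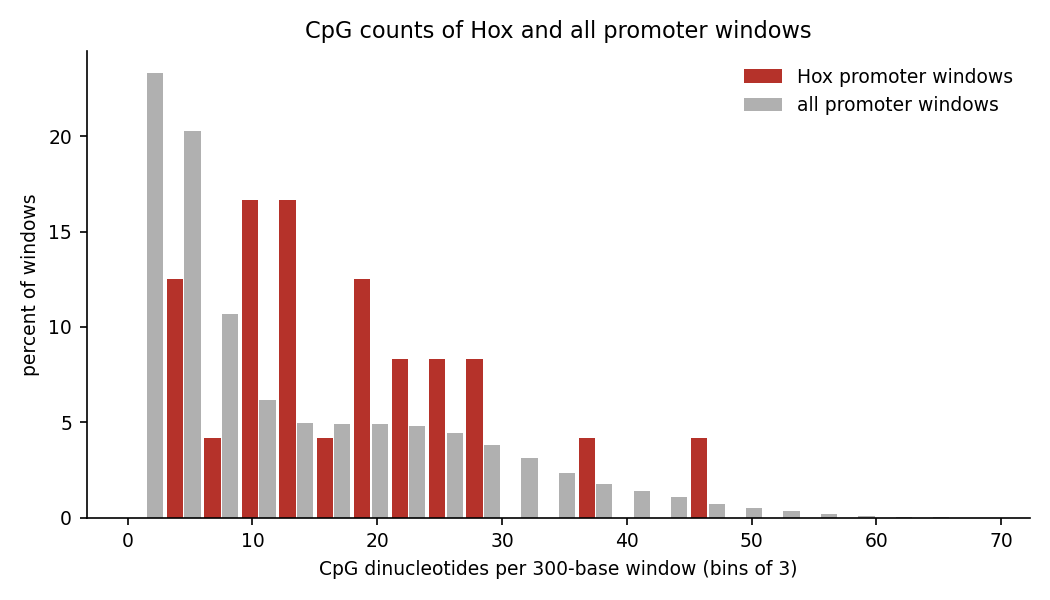
Share of promoter windows (y axis, percent) by number of CpG dinucleotides in 300 bases (x axis, bins of 3), for 24 Hox windows and all 32851 windows of the table. The median is 14.5 for Hox windows and 7 for all windows, and the Hox windows span 4 to 45.

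Most Hox genes were dim in all 4 groups. Values are the authors' linear intensities, 1 per probe set and array, and the median probe set of an array lay between 62.5 and 74.5. Of the 33 Hox genes, 17 (51.5%) lay below that median on all 8 arrays, against 27.7% of all 18140 genes, and their values ran from 0.883 to 58.9. Hoxa7, Hoxa11, Hoxb3 and Hoxc9 were above it on exactly 1 array, and Hoxa5 and Hoxc13 on all 8. The number of Hox genes above the median was 8 and 6 with CapH2 hairpins 3 and 4, 10 and 8 with Smc2 hairpins 1 and 2, 8 and 6 in the Smc1 replicates and 6 and 6 in the GFP replicates; all values below keep this order within a group. A median is no detection limit, and no detection calls were used, so a gene below it is dim and not shown to be silent. In RNA of whole cultures, few cells with much RNA of a gene and many cells with little cannot be told apart.

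**Figure D2:**
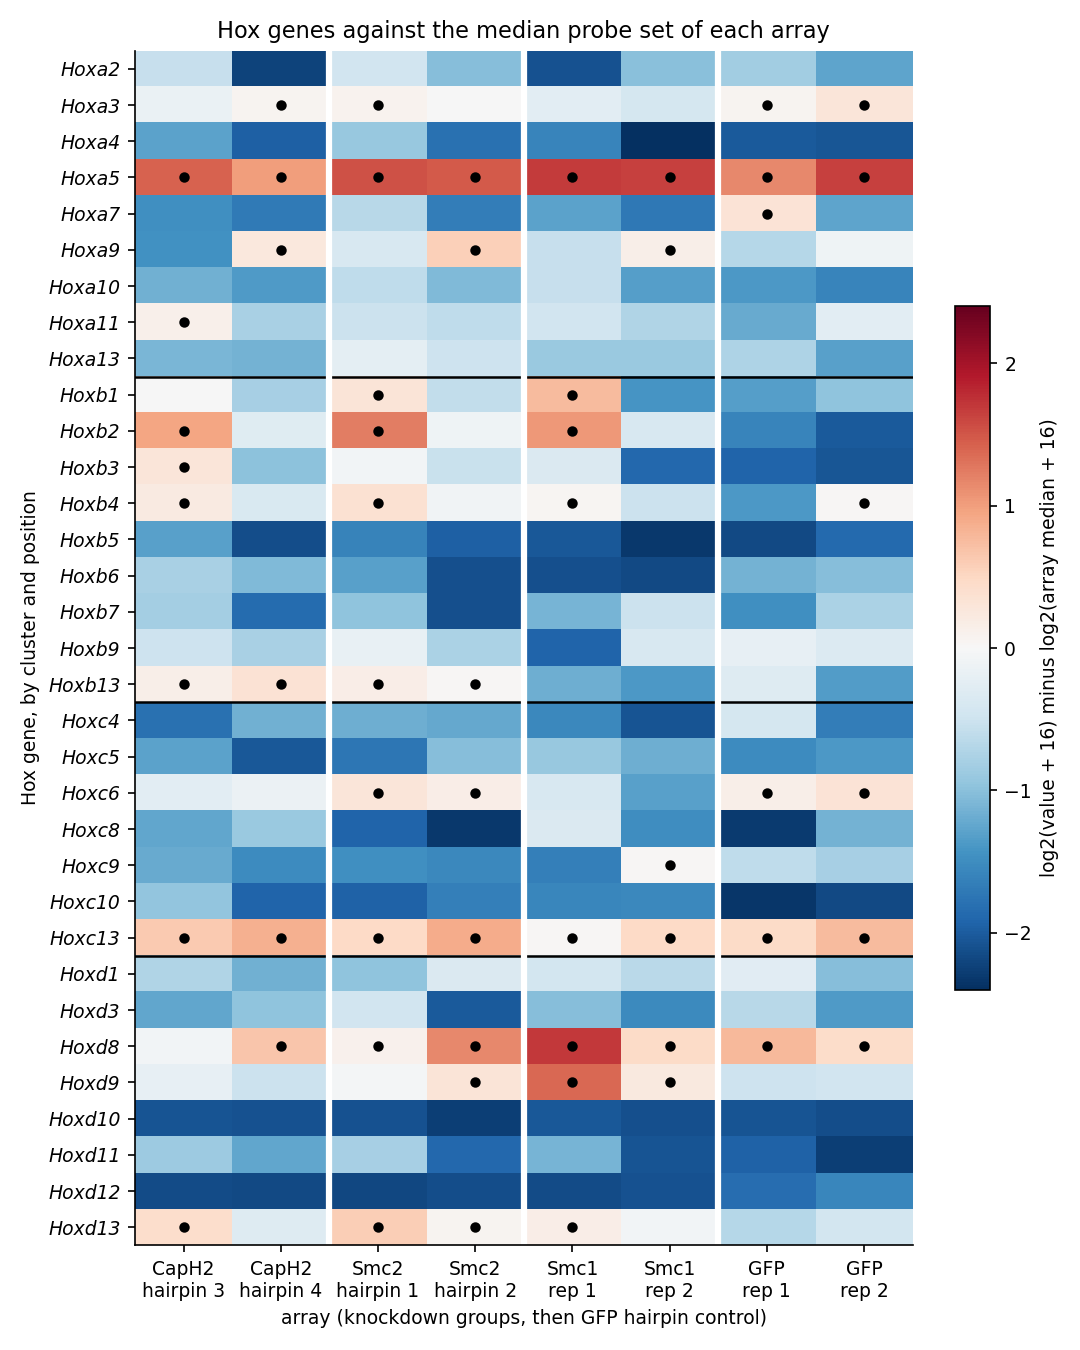
Each of the 33 Hox genes (rows, by cluster and position) on each of the 8 arrays (columns), coloured by log2(value + 16) minus that of the array's median probe set. Hoxa5 and Hoxc13 stand above the median on all 8 arrays, and 17 genes stand below it on all 8.

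A gene was tested where it was above the array median on at least 2 of the 8 arrays. That left 12 Hox genes (36.4%, against 68.3% of all genes): 3 of HoxA, 4 of HoxB, 2 of HoxC and 3 of HoxD. A gene that passed through the arrays of 1 group alone had to differ between groups, so the 12 are described gene by gene and not read as a sample of the 33. Changes are log2(value + 16) differences, which understate the change of dim genes, with limma standard errors (SE) and p-values adjusted by Benjamini and Hochberg over all 12394 genes tested. Called means an adjusted p below 0.05.

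In the HoxA cluster, Hoxa5, which is needed for the lung and the neck and thoracic skeleton, was above the array median in every sample. Its values were 204.8 and 154.6 in the CapH2 knockdown, 209.7 and 218.9 in the Smc2 knockdown, 251.6 and 267.9 in the Smc1 knockdown and 175.1 and 266.7 in GFP cells. Each knockdown overlapped GFP, and the Smc1 arrays lay above those of both condensin knockdowns. The change from GFP was -0.26, -0.01 and 0.25 (SE 0.264 each) in the CapH2, Smc2 and Smc1 knockdowns, none called. A second Hoxa5 probe set read 131.6 and 30.1 in the CapH2 knockdown, 124.9 and 54.1 in the Smc2 knockdown, 70.1 and 48.3 in the Smc1 knockdown and 10.6 and 36.6 in GFP cells. Its changes were 1.14, 1.41 and 0.99, so the probe sets of Hoxa5 disagreed.

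Hoxa3, needed for the thymus and parathyroid, measured 57.6 and 73.04 in the CapH2 knockdown, 67.5 and 68.9 in the Smc2 knockdown, 53.6 and 51.2 in the Smc1 knockdown and 73.05 and 94.2 in GFP cells. All 6 knockdown values lay below both GFP values, narrowly so for CapH2 hairpin 4. The Smc1 change was -0.53 (SE 0.337, limma adjusted p = 0.315). Of its 3 other probe sets, 1 gave 0.14 and the others -0.13 and -0.16 in that knockdown. Hoxa9, a regulator of blood stem cells, measured 14.2 and 84.6 in the CapH2 knockdown, 43.9 and 110.7 in the Smc2 knockdown, 40.7 and 84.4 in the Smc1 knockdown and 36.96 and 68.2 in GFP cells. Its arrays differed more within each group than the group means did, and its other probe set gave 0.51, 0.80 and 0.78 in the CapH2, Smc2 and Smc1 knockdowns. Hoxa9 was tested through CapH2 hairpin 4, Smc2 hairpin 2 and Smc1 replicate 2 alone. Hoxa7, which helps to pattern the trunk skeleton and was not tested, read 13.7 and 10.1 in the CapH2 knockdown, 33.3 and 10.9 in the Smc2 knockdown, 18.1 and 11.4 in the Smc1 knockdown and 91.1 and 21.4 in GFP cells. Only GFP replicate 1 was above its array median, and the gene is shown because its GFP mean was among the highest.

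In the HoxB cluster, Hoxb2 was the 1 Hox gene called in any comparison, and it rose in the Smc1 knockdown. Hoxb2 acts in the hindbrain, where Hoxb1 and its Pbx partners switch it on. Its single probe set read 142.6 and 53.0 in the CapH2 knockdown, 168.0 and 63.6 in the Smc2 knockdown, 155.6 and 53.1 in the Smc1 knockdown and 12.6 and 6.24 in GFP cells. All 6 knockdown values lay above both GFP values, and in each knockdown the first array was the higher. The change from GFP was 2.11 in the Smc1 knockdown (SE 0.592, n = 2 per group, limma adjusted p = 0.0425). It was 2.05 in the CapH2 knockdown (SE 0.592, adjusted p = 0.266) and 2.26 in the Smc2 knockdown (SE 0.592, adjusted p = 0.228), neither called. The 3 comparisons share the GFP arrays. Between the Smc1 and the condensin knockdowns (the mean of CapH2 and Smc2) Hoxb2 differed by -0.05 (SE 0.513, adjusted p = 0.969), so a difference in its response was not shown.

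Both GFP values of Hoxb2 were far below the array medians of 69.4 and 74.3, so the size of the change is not firm, and the gene passed the filter through 3 knockdown arrays. The Smc1 call was lost when Smc1 replicate 1 was left out (1.45, limma adjusted p = 0.295). So it was without either GFP array (2.29 and 1.93, adjusted p = 0.155 and 0.166). It was also lost under several other settings, at adjusted p between 0.0519 and 0.0769, and kept in 9 of 17 alternatives in all.

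The neighbours of Hoxb2 were mixed. Hoxb1, which sets the identity of a hindbrain segment and whose promoter is shown above, measured 66.01 and 33.03 in the CapH2 knockdown, 81.7 and 40.6 in the Smc2 knockdown, 124.7 and 18.1 in the Smc1 knockdown and 18.3 and 30.3 in GFP cells. The CapH2 and Smc2 arrays lay above both GFP arrays, while the Smc1 arrays lay on either side of them. The changes were 0.67, 0.90 and 0.80 (SE 0.648 each) in the CapH2, Smc2 and Smc1 knockdowns, none called. Hoxb1 was tested through Smc2 hairpin 1 and Smc1 replicate 1 alone, the only arrays above their medians. Hoxb3, a hindbrain gene that was not tested since it passed the median on 1 array only, read 85.3 and 27.1 in the CapH2 knockdown, 59.05 and 42.9 in the Smc2 knockdown, 49.3 and 8.56 in the Smc1 knockdown and 6.57 and 5.63 in GFP cells. All knockdown arrays were above both GFP arrays, but its other probe set gave changes of the opposite sign, -0.11, -0.57 and -0.49.

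Hoxb4, known for expanding blood stem cells, measured 79.8 and 50.2 in the CapH2 knockdown, 85.6 and 63.8 in the Smc2 knockdown, 70.3 and 47.2 in the Smc1 knockdown and 17.03 and 75.9 in GFP cells. The GFP arrays differed from each other more than the group means did, and no change was called; its other probe set gave 0.26, 0.33 and 0.75 in the CapH2, Smc2 and Smc1 knockdowns. Hoxb9, a thoracic gene that was below the median on all arrays, read 42.6 and 33.4 in the CapH2 knockdown, 53.3 and 34.1 in the Smc2 knockdown, 5.80 and 53.31 in the Smc1 knockdown and 58.9 and 56.06 in GFP cells. Each of the 6 knockdown values was below both GFP values. Hoxb9 is shown because its GFP mean was among the highest, which favours this order. Over all genes 21.6, 21.6 and 25.6% lay below GFP in the CapH2, Smc2 and Smc1 knockdowns.

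Hoxb13, at the far end of the cluster and known from the prostate and tail, was low on the Smc1 arrays. Its single probe set measured 75.6 and 91.3 in the CapH2 knockdown, 71.95 and 71.0 in the Smc2 knockdown, 21.0 and 18.9 in the Smc1 knockdown and 52.5 and 19.6 in GFP cells. Both Smc1 arrays lay below all 4 condensin knockdown arrays, and the CapH2 and Smc2 arrays lay above both GFP arrays. The gene was tested through the 4 condensin knockdown arrays alone, the only ones above their medians. Against the mean of the CapH2 and Smc2 knockdowns the Smc1 difference was -1.37 (SE 0.372, limma adjusted p = 0.0521), just outside the threshold. It passed in 4 of 18 alternatives, with adjusted p between 0.0333 and 0.260 over all of them, and with no filter the adjusted p was 0.0579. Against GFP the changes were 1.01 in the CapH2 knockdown (SE 0.429, adjusted p = 0.385), 0.82 in the Smc2 knockdown (adjusted p = 0.438) and -0.46 in the Smc1 knockdown (adjusted p = 0.505).

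In the HoxC cluster, Hoxc6, a thoracic gene, was lowest in the Smc1 knockdown. Its brightest probe set measured 53.1 and 60.8 in the CapH2 knockdown, 79.99 and 79.4 in the Smc2 knockdown, 47.4 and 20.5 in the Smc1 knockdown and 77.6 and 96.8 in GFP cells. The Smc1 arrays were below all other arrays, with a change from GFP of -1.09 (SE 0.386, limma adjusted p = 0.0860) that was not called. It passed only in the fit without an intensity trend (adjusted p = 0.0456). Without Smc1 replicate 2 the change was -0.70, and without Smc1 replicate 1 it was -1.49. The other probe sets of Hoxc6 gave 0.22 and -0.04 in the Smc1 knockdown. Hoxc13, which works in hair and nails, measured 111.6 and 137.8 in the CapH2 knockdown, 93.9 and 141.1 in the Smc2 knockdown, 68.6 and 110.6 in the Smc1 knockdown and 102.1 and 137.5 in GFP cells. Each knockdown overlapped GFP, while both Smc1 arrays lay below both CapH2 arrays, and the Smc1 change was -0.38 (SE 0.336, adjusted p = 0.477).

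In the HoxD cluster, Hoxd9, which acts in the lower spine and limbs, was highest in the Smc1 knockdown. Its single probe set measured 56.2 and 43.7 in the CapH2 knockdown, 59.6 and 88.6 in the Smc2 knockdown, 201.0 and 90.9 in the Smc1 knockdown and 44.2 and 49.9 in GFP cells. Both Smc1 values exceeded those of the other 6 arrays, and the change from GFP was 1.27 (SE 0.410, limma adjusted p = 0.0654), not called. The gene was tested through both Smc1 arrays and Smc2 hairpin 2 alone, and with no filter the adjusted p was 0.0941. The change passed in 2 of 17 alternatives, with the Smc1 and GFP arrays fitted alone (adjusted p = 0.0465) and without Smc1 replicate 2 (1.78). Without Smc1 replicate 1 it was 0.76. Against the condensin knockdowns the difference was 0.99 (SE 0.355, adjusted p = 0.123).

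Hoxd8, a trunk gene next to Hoxd9, measured 62.8 and 118.6 in the CapH2 knockdown, 68.6 and 173.7 in the Smc2 knockdown, 252.6 and 108.5 in the Smc1 knockdown and 131.3 and 106.2 in GFP cells. The groups overlapped, and its other probe set gave -0.67, -0.92 and 0.05 in the CapH2, Smc2 and Smc1 knockdowns. Hoxd13, which shapes the digits, measured 94.7 and 52.3 in the CapH2 knockdown, 101.5 and 73.4 in the Smc2 knockdown, 76.5 and 69.9 in the Smc1 knockdown and 37.4 and 50.3 in GFP cells. All 6 knockdown values lay above both GFP values, with changes of 0.55, 0.78 and 0.58 (SE 0.376 each), none called. Hoxd13 was tested through CapH2 hairpin 3, both Smc2 arrays and Smc1 replicate 1 alone, the only arrays above their medians. Its other probe set, dim on all arrays, gave -0.13, 0.60 and 0.02.

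**Figure D3:**
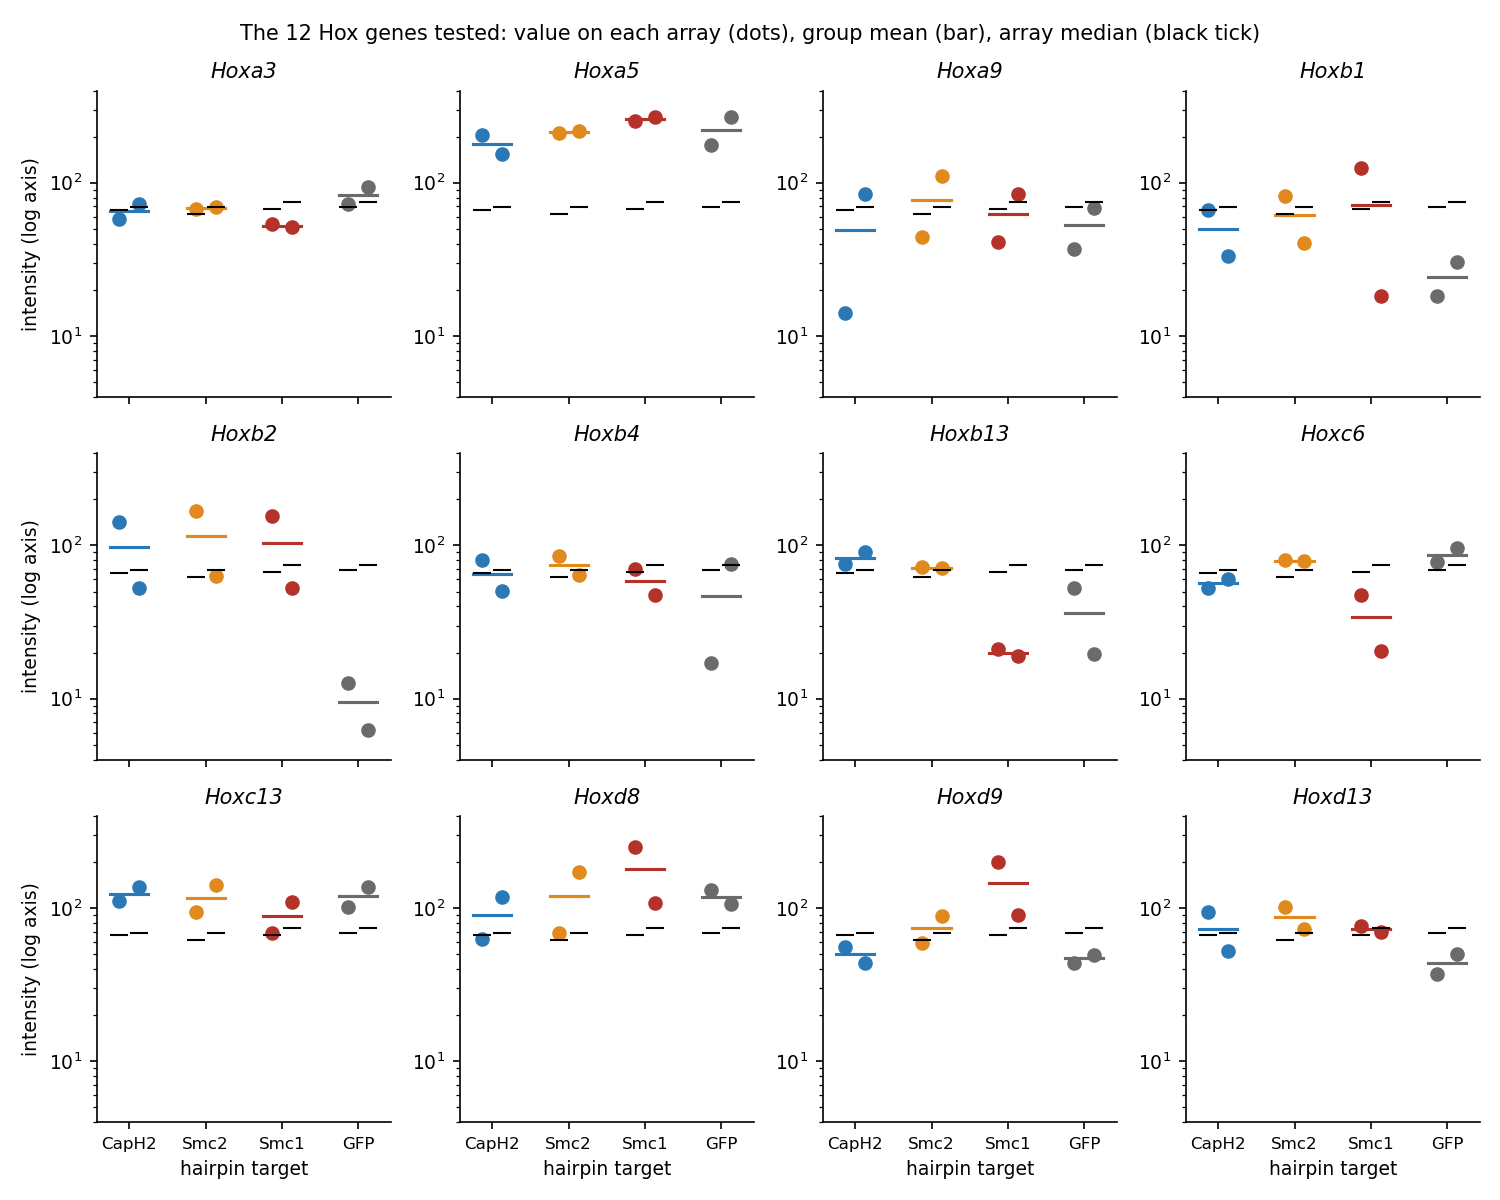
Intensity (log axis) of the 12 Hox genes tested on each array (dots), with group means (bars) and array medians (black ticks), for the CapH2, Smc2 and Smc1 knockdowns and GFP. Hoxb2 reads 12.6 and 6.24 on the GFP arrays and 53.0 to 168.0 on the knockdown arrays; Hoxb13 reads 21.0 and 18.9 on the Smc1 arrays.

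The comparison of the Smc1 knockdown with GFP asks which Hox genes depend on cohesin. There 1 of the 12 Hox genes tested was called, beside 14% of all genes tested (9.3% higher and 4.69% lower). At an unadjusted p below 0.05 there were 3, Hoxb2, Hoxc6 and Hoxd9, beside 31.2% of all genes. In the CapH2 knockdown against GFP, which asks about condensin II, limma called 0 of the 12, beside 0.0161% of all genes, and 2 had an unadjusted p below 0.05, Hoxb2 and Hoxb13, beside 12.6% of all genes. In the Smc2 knockdown limma called 0 of 12, beside 0.0161%, and Hoxb2 alone had an unadjusted p below 0.05, beside 12.6%.

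The other comparisons leave GFP out. Between the Smc1 knockdown and the mean of the condensin knockdowns limma called 0 of 12 Hox genes, beside 7.75% of all genes (5.53% higher and 2.23% lower), with 3, Hoxb13, Hoxc6 and Hoxd9, at an unadjusted p below 0.05, beside 23.6% of all genes. Between the CapH2 and Smc2 knockdowns it called 0 of 12, beside 0.00807%, and no Hox gene had an unadjusted p below 0.05 (0 of 12), beside 1.03% of all genes. Without the filter it called 0 of 33 in either comparison, beside 3.27% and 0.00551% of all genes, and 4 and 1 had an unadjusted p below 0.05, beside 18.5% and 2.43%. Among the 12 tested, the differences between the CapH2 and Smc2 knockdowns ran from -0.66 for Hoxa9 to 0.18 for Hoxb13, and over all 33 from -0.70 for Hoxa13 to 1.09 for Hoxc8.

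**Figure D4:**
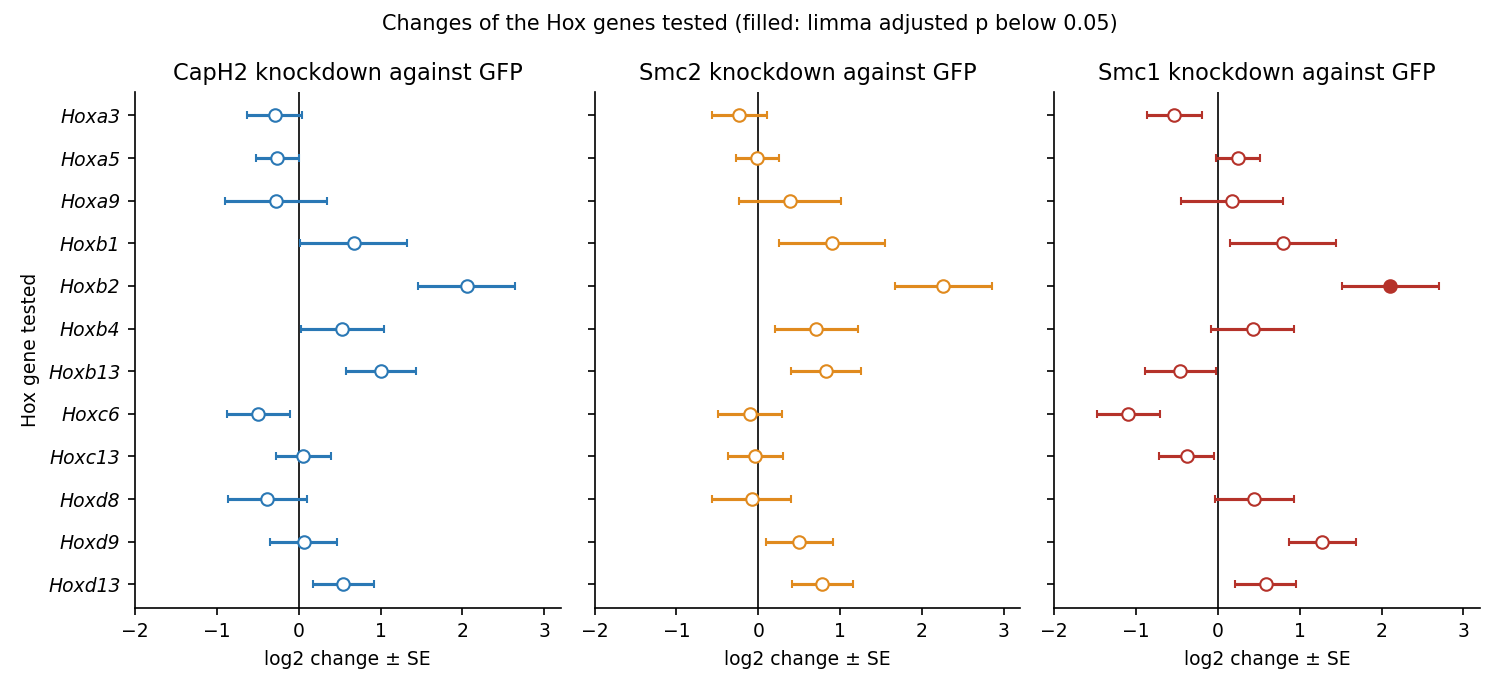
Log2 change with its SE (x axis) of each of the 12 Hox genes tested (rows) in the CapH2, Smc2 and Smc1 knockdowns against GFP; filled points have a limma adjusted p below 0.05. Hoxb2 lies at 2.05, 2.26 and 2.11 and is filled in the Smc1 panel alone.

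Over all 33 genes, with no filter on dim genes, the median changes of the Hox genes lay close to those of all genes. The median change from GFP was -0.04 in the CapH2 knockdown, -0.01 in the Smc2 knockdown and 0.11 in the Smc1 knockdown, beside -0.01, -0.02 and 0.01 over all genes. By cluster, the 9 HoxB genes had medians of 0.53, 0.71 and 0.29 in the CapH2, Smc2 and Smc1 knockdowns. The 9 HoxA genes had -0.26, 0.21 and 0.11, the 7 HoxC genes -0.28, -0.10 and -0.12, and the 8 HoxD genes -0.10, -0.10 and 0.26. In the CapH2 knockdown 7 of the 9 HoxB genes were above 0, beside 49.5% of all genes, and the changes there ran from -0.45 to 2.05. In the Smc2 and Smc1 knockdowns 6 and 5 of the 9 were above 0, beside 48.1% and 50.9% of all genes. Limma called 0 of the 33 without the filter in each knockdown, beside 0.011% of all genes in the CapH2 and in the Smc2 comparison and 6.92% in the Smc1 comparison. An unadjusted p below 0.05 was reached by 5, 2 and 4 of the 33 in the CapH2, Smc2 and Smc1 knockdowns, beside 10.5, 10.8 and 23.8% of all genes.

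Values that do not overlap between groups were counted for the same 33 genes. Both CapH2 arrays lay above both GFP arrays for 9 of the 33 genes, beside 22.1% of all genes, and below them for 7, beside 21.6%. The 9 were Hoxa4, Hoxa10, Hoxb1, Hoxb2, Hoxb3, Hoxb13, Hoxc10, Hoxd11 and Hoxd13. Both Smc2 arrays lay above GFP for 11 genes, beside 20.6%, and below for 6, beside 21.6%. Both Smc1 arrays lay above GFP for 7 genes, beside 29.1%, and below for 7, beside 25.6%; the 7 above were Hoxa10, Hoxb2, Hoxb3, Hoxc5, Hoxc10, Hoxd9 and Hoxd13. Of these, Hoxa4, Hoxa10, Hoxc5, Hoxc10 and Hoxd11 were below the median on all 8 arrays. With the GFP arrays shared, the lists of the 3 knockdowns are not independent.

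Arrays within a group spread further apart for the Hox genes than for the median gene. The median absolute difference between the arrays of a group was 0.39 over the 33 Hox genes in the CapH2 knockdown, 0.40 in the Smc2 knockdown, 0.45 in the Smc1 knockdown and 0.36 for GFP. Over all genes it was 0.28, 0.32, 0.27 and 0.26 in the same groups. More of the Hox genes were dim, and no genes of like intensity were compared. Of the 33, 21 were higher with CapH2 hairpin 3 than with hairpin 4, 20 with Smc2 hairpin 1 than with hairpin 2, 21 on Smc1 replicate 1 than on replicate 2 and 14 on GFP replicate 1 than on replicate 2. Over all genes the shares higher on the first array were 50.2, 45.02, 44.7 and 47.5%.

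Hox proteins bind DNA with homeodomain partners of the TALE class. For this and the next lists, the shares of all genes tested that rose and fell in the Smc1 knockdown, 9.3% and 4.69%, are the background, and the median change of all genes tested was 0.03. Of 9 TALE genes tested, 1 rose and 0 fell: Pbx3, a partner of Hox proteins, measured 715.6 and 1059 in the CapH2 knockdown, 976.1 and 903.3 in the Smc2 knockdown, 1445 and 1212 in the Smc1 knockdown and 593.6 and 549.9 in GFP cells. Both Smc1 values were above all others. The change was 1.19 (SE 0.221, limma adjusted p = 0.00935) and lost its call without Smc1 replicate 1 (1.06, adjusted p = 0.0962) and without either GFP array (adjusted p = 0.0716 and 0.0646). The median of the 9 was 0.49. Meis1 and Pknox2 among them passed the filter through knockdown arrays alone, so this median has no weight of its own.

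Cdx genes are upstream regulators of posterior Hox genes. Of 6 tested members of the Cdx, ParaHox and related homeobox list, 1 rose in the Smc1 knockdown against GFP and 0 fell, beside 9.3% and 4.69% of all genes, with a median change of 1.01. Cdx1 and Cdx2 passed the filter through the Smc1 arrays alone and so had to differ, which leaves the count and the median with no weight of their own. Cdx2, which drives trophectoderm and posterior body development, measured 34.2 and 22.96 in the CapH2 knockdown, 54.8 and 35.4 in the Smc2 knockdown, 239.7 and 118.0 in the Smc1 knockdown and 7.25 and 28.8 in GFP cells. The change was 2.52 against GFP (SE 0.491, limma adjusted p = 0.0109) and 1.84 against the condensin knockdowns (SE 0.426, adjusted p = 0.0303), and with no filter the adjusted p of Cdx2 was 0.0171 and 0.0426. The first was lost without replicate 1 of Smc1 (2.05, adjusted p = 0.129) or of GFP (2.05, adjusted p = 0.0982). Gbx2, a homeobox gene of the anterior hindbrain and of ES cells, was not called; it read 1084.5 and 271.1 in the CapH2 knockdown, 1611.8 and 354.8 in the Smc2 knockdown, 627.2 and 309.5 in the Smc1 knockdown and 140.6 and 176.1 in GFP cells. En2, a midbrain and hindbrain gene, fell by 1.58 in the Smc1 knockdown against the condensin knockdowns (SE 0.370, adjusted p = 0.0314). It read 365.6 and 220.5 in the CapH2 knockdown, 409.0 and 144.0 in the Smc2 knockdown, 84.9 and 70.3 in the Smc1 knockdown and 126.5 and 111.8 in GFP cells. This call was lost with no filter, no intensity trend, only the groups compared or the replicate block, and that of Cdx2 with the block or a pseudocount of 1. Neither call of that comparison remained without an Smc1 array, and 1 of the 2 did without each CapH2 or GFP array.

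Retinoic acid is the textbook inducer of Hox genes in ES cells. In the Smc1 knockdown 1 of 14 tested genes of its pathway rose and 1 fell, beside 9.3% and 4.69% of all genes, with a median change of 0.10. Rarb and Rxrg passed the filter through knockdown arrays alone, so this median has no weight of its own. Crabp2, which carries retinoic acid to its receptors in the nucleus, measured 697.6 and 408.6 in the Smc1 knockdown and 188.0 and 145.3 on the GFP arrays, a change of 1.60 (SE 0.284, limma adjusted p = 0.00785). Crabp1, a cytoplasmic carrier of retinoic acid, measured 615.0 and 374.6 in the Smc1 knockdown and 2049 and 1415 on the GFP arrays, a change of -1.79 (SE 0.297, adjusted p = 0.00627). The Smc1 and GFP arrays did not overlap for either gene. Crabp1 read 782.6 and 1050 in the CapH2 knockdown and 879.5 and 1256 in the Smc2 knockdown. Crabp2 read 289.8 and 369.3 in the CapH2 knockdown and 276.9 and 243.8 in the Smc2 knockdown. For both genes these values also lay on the Smc1 side of both GFP values. Over all genes, 22.1% lay above GFP and 21.6% below in the CapH2 knockdown, and 20.6% and 21.6% in the Smc2 knockdown. Both genes were picked by calls against the same GFP arrays, which favours such an order. Crabp1 lost its call without GFP replicate 1 (-1.53, adjusted p = 0.0772), and Crabp2 without Smc1 replicate 1 (1.23, adjusted p = 0.0843) and without either GFP array (adjusted p = 0.0531 and 0.0617). Against the condensin knockdowns Crabp1 fell by 1.00 (adjusted p = 0.0443), a call that remained only when CapH2 hairpin 3 or Smc2 hairpin 1 was the array left out.

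Genes that flank the clusters were mostly not called. Of 29 tested, 1 rose and 1 fell in the Smc1 knockdown, beside 9.3% and 4.69% of all genes, with a median change of -0.01. Nfe2l3, a transcription factor gene near HoxA, measured 235.2 and 271.1 in the Smc1 knockdown and 99.8 and 94.1 on the GFP arrays (1.25, SE 0.308, limma adjusted p = 0.0261). Calcoco2, an autophagy receptor gene beyond Hoxb13, measured 725.6 and 918.8 in the Smc1 knockdown and 1910 and 2737 on the GFP arrays (-1.47, SE 0.232, adjusted p = 0.00525). The Smc1 and GFP arrays did not overlap for either gene. Calcoco2 read 1569 and 1274 in the CapH2 knockdown and 1307 and 1625 in the Smc2 knockdown, also below both GFP values. Over all genes 21.6% lay so in either condensin knockdown, and Calcoco2 was picked by its call against the same GFP arrays. Nfe2l3 read 73.6 and 114.9 in the CapH2 knockdown and 91.4 and 136.9 in the Smc2 knockdown, on either side of GFP. Both calls were lost without Smc1 replicate 1, and 1 of the 2 remained without each of the other Smc1 and GFP arrays.

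Polycomb and Trithorax proteins and their partners keep Hox genes off or on. Of 35 such genes tested, 4 rose and 3 fell in the Smc1 knockdown, beside 9.3% and 4.69% of all genes, with a median change of -0.16. Phc2 and Bmi1, subunits of Polycomb complex PRC1, rose by 1.42 (SE 0.268, limma adjusted p = 0.00980) and 1.05 (SE 0.199, adjusted p = 0.0102). Kmt2a, the Trithorax methyltransferase that maintains Hox expression, rose by 0.79 (SE 0.210, adjusted p = 0.0351), and Yy1, a DNA-binding factor, by 0.51 (adjusted p = 0.0397). Mtf2 and Suz12, subunits of Polycomb complex PRC2, fell by 0.79 (SE 0.173, adjusted p = 0.0169) and 0.76 (SE 0.183, adjusted p = 0.0240), and Gmnn, the replication inhibitor geminin, fell by 0.45 (adjusted p = 0.0493). These 7 calls shrank to 4 with no filter or with all probe sets averaged and to 3 without the intensity trend. With quantile normalization or the replicate block 5 were left, and Gmnn was lost in each of these fits. Suz12 measured 2948 and 4102 on the Smc1 arrays, against 5981 and 5816 on the GFP arrays. Its values were 4464 and 5100 in the CapH2 knockdown and 4222 and 5032 in the Smc2 knockdown. Bmi1 measured 1140 and 980.6 on the Smc1 arrays, against 510.4 and 497.1 on the GFP arrays. It read 774.0 and 692.4 in the CapH2 knockdown and 579.6 and 736.2 in the Smc2 knockdown. All condensin knockdown values of Suz12, Bmi1, Yy1, Kmt2a and Gmnn lay on the Smc1 side of both GFP values. Those of Phc2 and Mtf2 did not all do so. Over all genes, 22.1% lay above GFP and 21.6% below in the CapH2 knockdown, and 20.6% and 21.6% in the Smc2 knockdown. The 7 genes were picked by calls against the same GFP arrays, which favours such an order. The share of genes with both condensin knockdowns on 1 side was not counted. Of the 7 calls, 0 remained when replicate 1 of Smc1 or of GFP was left out, 3 when Smc1 replicate 2 was, 1 when GFP replicate 2 was and 5 when either CapH2 array was.

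Among 16 tested genes of mesoderm and the posterior axis, 2 rose and 1 fell in the Smc1 knockdown, beside 9.3% and 4.69% of all genes, with a median change of 0.49. Sp5, Pdgfra, Gata4, Isl1 and Wnt8a passed the filter through knockdown arrays alone. The count of rises and the median therefore have no weight of their own. Sp5, a target of Wnt signalling, measured 673.7 and 162.3 in the Smc1 knockdown and 26.5 and 9.75 on the GFP arrays (3.41, SE 0.625, limma adjusted p = 0.00884). The GFP arrays were both below their medians. Pdgfra, a growth factor receptor of mesoderm and fibroblasts, rose by 1.37 (adjusted p = 0.0407), and Tbx3, which also serves ES cell self-renewal, fell by 2.18 (adjusted p = 0.00786). Pdgfra lost its call with no filter and with the replicate block. The condensin knockdown values of Sp5 and Pdgfra also lay above both GFP values, while those of Tbx3 overlapped GFP. Over all genes 22.1% lay above GFP in the CapH2 knockdown and 20.6% in the Smc2 knockdown. Sp5, Pdgfra and Tbx3 were picked by calls against the same GFP arrays. Of the 3 calls, 0 remained without Smc1 replicate 1, 2 without Smc1 replicate 2 or CapH2 hairpin 3, and 1 without each GFP array. In the CapH2 and Smc2 knockdowns limma called 0 members in each of the 8 lists of related genes and markers, including the 2 marker lists that follow, beside 0.0161% of all genes.

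**Figure D5:**
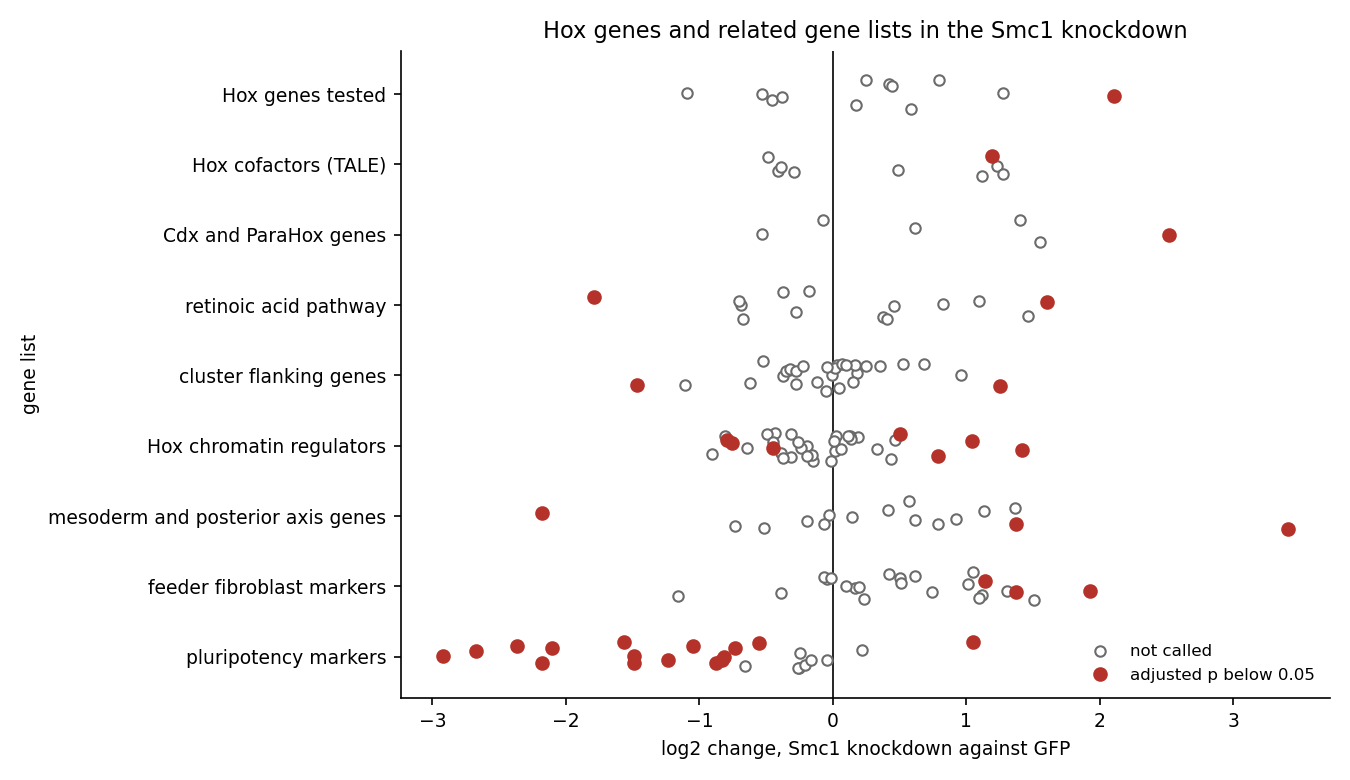
Log2 change in the Smc1 knockdown against GFP (x axis) of each tested gene of the Hox genes and of the 8 related lists (rows), with called genes marked. Among the Hox genes Hoxb2 is called at 2.11, and most of the called pluripotency markers lie below 0.

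Markers of the ES cells and of feeder fibroblasts were read in the same way. All 24 ES cell markers passed the filter and 15 of them fell and 1 rose in the Smc1 knockdown, beside 4.69% and 9.3% of all genes, with a median change of -0.82. Lin28a was the one that rose (1.05, limma adjusted p = 0.0461). Their summed level was 116532 and 138506 in the Smc1 knockdown, 165784 and 165218 in the CapH2 knockdown, 176737 and 180680 in the Smc2 knockdown and 188341 and 191170 in GFP cells. The Smc1 arrays were the lowest. Tcl1, Prdm14, Klf4, Nanog, Klf2 and Esrrb had the smallest adjusted p, with changes between -2.92 for Prdm14 and -0.73 for Nanog. Of the 16 calls, 4 and 14 remained when Smc1 replicate 1 or 2 was left out, and 7 and 5 when GFP replicate 1 or 2 was. Embryo fibroblasts, used as feeders, express Hox genes. Of 37 fibroblast markers 35 were measured and 23 tested; 3 rose in the Smc1 knockdown and 0 fell, beside 9.3% and 4.69% of all genes. The median change of the 23 was 0.46 in the CapH2 knockdown, 0.25 in the Smc2 knockdown and 0.51 in the Smc1 knockdown, beside 0.01, -0.01 and 0.03 over all genes tested. Several markers, such as Lox and Postn, passed the filter through knockdown arrays alone, so these medians have no weight of their own. The 3 were Col3a1 (1.92, adjusted p = 0.0153), Timp2 (1.14, adjusted p = 0.0156) and Pdgfra, and of the 3 calls 0 remained without Smc1 replicate 1 or GFP replicate 1, 1 without GFP replicate 2 and 2 without Smc1 replicate 2 or CapH2 hairpin 3. With all probe sets of a gene averaged, neither Col3a1 (1.09, adjusted p = 0.0697) nor Timp2 (1.05, adjusted p = 0.0523) was called, and Pdgfra was not tested. Col3a1 and Pdgfra were tested through knockdown arrays alone, and Pdgfra lost its call with no filter and with the replicate block. The summed level of the 35 markers was 22202 and 21848 in the CapH2 knockdown, 18910 and 19471 in the Smc2 knockdown, 22042 and 24654 in the Smc1 knockdown and 18020 and 24860 in GFP cells, so each knockdown overlapped GFP. Vim and Fn1, an intermediate filament and a matrix gene, carried most of that sum. Chosen after the values were seen, the sum of the other 33 markers was 6741 and 5857 in the CapH2 knockdown, 5771 and 7009 in the Smc2 knockdown, 8705 and 7967 in the Smc1 knockdown and 5699 and 6149 in GFP cells, with both Smc1 arrays above the other 6. Fstl1 alone carried much of this sum, at 3680 and 3367 in the Smc1 knockdown and 3015 and 3131 in GFP cells. Timp2 read 989.2 and 894.0 in the Smc1 knockdown and 366.9 and 477.5 in GFP cells. The median was not reached on any array by 11 markers, among them the fibroblast genes Dcn, Lum, Fap and Prrx1. The part of either marker list in the Hox values was not tested.

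Set against the condensin knockdowns, the Smc1 knockdown gave calls in most of the same lists. Nfe2l3 rose by 1.19 (limma adjusted p = 0.0275) and Calcoco2 fell by 0.80 (adjusted p = 0.0404) among the flanking genes. Phc2 rose by 0.99 (adjusted p = 0.0318) and Mtf2 fell by 0.66 (adjusted p = 0.0297) among the chromatin regulators. Tbx3 fell by 1.79 (adjusted p = 0.0151), Col3a1 rose by 1.61 (adjusted p = 0.0261), Timp2 rose by 0.84 (adjusted p = 0.0404) and Postn fell by 1.41 (adjusted p = 0.0337). Of the ES cell markers 12 fell and 0 rose, beside 2.23% and 5.53% of all genes, led by Klf4 (-1.76, adjusted p = 0.00210). With no filter, 0 of the 2 flanking and 0 of the 2 chromatin calls were left. The same fit kept 1 of the 3 fibroblast marker calls, that of Tbx3 and 10 of the 12 ES cell calls. Without Smc1 replicate 1 only 1 of all these calls, in the ES cell list, remained. The calls of the flanking and chromatin lists were also lost without Smc1 replicate 2 or either GFP array, those of the flanking genes without CapH2 hairpin 3 and those of the chromatin regulators without CapH2 hairpin 4. Of the 3 fibroblast marker calls, 0 to 2 remained when 1 array was left out.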

How the data were processed

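Total RNA of 8 cultures was labelled with biotin by the 3' protocol of the array maker from 100 ng, per the labels' protocols. The deposited values are intensity, given on a linear scale with 1 value for each of 44903 probe sets on every array; how probes were summarised was not given in the sources used here. Trimmed means lay between 488.9 and 490.0 on all arrays, so the authors' values had been scaled to a common mean, and no normalization was added. Values were turned into log2(value + 16), computed here from the deposited intensity. Probe sets with 1 symbol (34758, array controls left out) were used, 926 with several symbols and 9206 with none were not, and the brightest stood for each gene. Probe sets were named by GEO's platform annotation.

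All 8 arrays were fitted with limma 3.58.1 in R 4.3.3 (group means, moderation with an intensity trend, 4 residual degrees of freedom, 12394 genes). The spread pools differences between hairpins with those between replicates, and 2 arrays per group limit the precision. The labels call the Smc1 and GFP arrays biological replicates; their deviations by replicate number correlated at 0.07, too little to pair them. The fit was checked on simulated data. Hox genes called or with the highest GFP means up to 12 were to be given on every array; the other tested genes, Hoxb1 and Hoxb13, and Hoxb3 were added after their values were seen. Called members of related lists were named up to 6 per list. The genes, lists and rules were chosen with earlier results of these data known. Alternatives were other scalings, pseudocounts of 1 and 64, other filters, all probe sets averaged, no trend, single comparisons fitted alone, each array left out and a replicate block.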

Additional observations from a re-analysis of the deposited data

How the results depend on the processing

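The call of Hoxb2 in the Smc1 knockdown depended on the processing. The number of Hox genes called there was 1, and it was 0 under quantile normalization (Hoxb2 2.08, limma adjusted p = 0.0519), with a pseudocount of 64 (1.13, adjusted p = 0.0769), with no filter (adjusted p = 0.0650), where the median had to be passed on at least 4 arrays and Hoxb2 was not tested, and with the replicate block (adjusted p = 0.0539). It was 2, Hoxb2 and Hoxd9, with only the Smc1 and GFP arrays fitted. Without the intensity trend it was 1, but the gene was Hoxc6 and Hoxb2 had an adjusted p of 0.0624. Leaving out 1 array at a time gave 0 to 2. For the Smc1 knockdown against the condensin knockdowns the number was 0, and 1, Hoxb13, with a pseudocount of 64 (adjusted p = 0.0451), at least 4 arrays (adjusted p = 0.0440), all probe sets averaged (adjusted p = 0.0442) or no trend (adjusted p = 0.0333). The causes were not tested. Hox genes with both Smc2 arrays below GFP numbered 6, and 3 with arrays centred on their medians, an alternative chosen after seeing the data. The block, read in all comparisons but CapH2 against Smc2, changed no other Hox call. Of 1023 alternative values of the 12 genes over 5 comparisons, 946 kept their direction and side of the threshold, 8 lost and 7 gained a call, and 62, with 0 called among them, turned their sign. Of these, 13 came from another setting. With quantile normalization they were Hoxa5 0.064, Hoxc6 0.011, Hoxc13 0.057 and Hoxd8 0.013 for Smc2 against GFP and Hoxb1 -0.040 for Smc1 against the condensin knockdowns. With median centring they were Hoxa5 0.092, Hoxc6 0.0034, Hoxc13 0.070 and Hoxd8 0.022 for Smc2 against GFP and Hoxb1 -0.055 for Smc1 against the condensin knockdowns. With all probe sets averaged they were Hoxa5 0.44 for CapH2 against GFP and Hoxa5 0.70 for Smc2 against GFP. With a pseudocount of 1 it was Hoxb1 -0.11 for Smc1 against the condensin knockdowns. The other 49 came from leaving out 1 array, over which these changes ranged as follows. For CapH2 against GFP the range was -0.54 to 0.022 for Hoxa5, -1.15 to 0.59 for Hoxa9, -0.21 to 1.27 for Hoxb4, -0.13 to 0.25 for Hoxc13, -0.77 to 0.0044 for Hoxd8 and -0.078 to 0.20 for Hoxd9. For Smc2 against GFP the range was -0.30 to 0.27 for Hoxa5, -0.16 to 0.92 for Hoxa9, -0.029 to 1.45 for Hoxb4, -0.24 to 0.033 for Hoxc6, -0.29 to 0.22 for Hoxc13 and -0.67 to 0.50 for Hoxd8. For Smc1 against GFP the range was -0.036 to 0.53 for Hoxa5, -0.24 to 0.59 for Hoxa9, -0.22 to 1.82 for Hoxb1, -0.31 to 1.16 for Hoxb4, -0.93 to 0.015 for Hoxb13 and -0.11 to 1.00 for Hoxd8. For Smc1 against the condensin knockdowns the range was -0.31 to 0.56 for Hoxa9, -1.01 to 1.04 for Hoxb1, -0.70 to 0.61 for Hoxb2, -0.42 to 0.028 for Hoxb4 and -0.26 to 0.091 for Hoxd13. For CapH2 against Smc2 the range was -0.19 to 0.081 for Hoxa3, -1.53 to 0.21 for Hoxa9, -0.62 to 0.16 for Hoxb1, -0.81 to 0.39 for Hoxb2, -0.44 to 0.090 for Hoxb4, -0.17 to 0.35 for Hoxc13, -0.88 to 0.28 for Hoxd8 and -0.59 to 0.11 for Hoxd13. Most Hox genes lay at or below the array medians, where signal limits every change.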

Other observations

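Probe sets of the clusters that fall outside the choice by symbol were mostly dim. The antisense transcripts Hoxa11os and Hoxd3os1 and the probe sets shared by Hoxb8 and Hoxb7 and by Hoxd4 and Hoxd3 were below the array median on all 8 arrays. The antisense transcript Hoxb5os read 72.5 and 12.8 in the Smc1 knockdown, 3.58 and 3.2 in the CapH2 knockdown, 23.1 and 65.8 in the Smc2 knockdown and 12.4 and 32.3 in GFP cells, above the array median on Smc1 replicate 1 alone. The brighter probe set of Hoxd3os1 measured 37.4 and 35.5 in the Smc1 knockdown, 17.7 and 29.6 in the CapH2 knockdown, 26.9 and 36.6 in the Smc2 knockdown and 17.4 and 49.3 in GFP cells, a Smc1 change of 0.17 with overlapping groups. Its dimmer probe set, with a Smc1 change of 0.59, measured 23.9 and 40.3 in the Smc1 knockdown, 11.8 and 4.53 in the CapH2 knockdown, 0.447 and 9.65 in the Smc2 knockdown and 14.1 and 16.9 in GFP cells. On that probe set alone both Smc1 values were the highest of the 8. The second probe set of Hoxa10, a gene of the lower spine and uterus, read 32.2 and 41.7 in the Smc1 knockdown, 5.52 and 14.0 in the CapH2 knockdown, 21.4 and 20.8 in the Smc2 knockdown and 3.55 and 6.91 in GFP cells. Its brightest probe set read 40.5 and 20.4 on the Smc1 arrays and 16.9 and 14.3 on the GFP arrays.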
